A study of Mus musculus with 28 samples.

Results

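The genes described here are a list of 45 named genes of the cell cycle and DNA replication. They comprise 20 genes that peak around G1/S (the entry into DNA synthesis) and 25 that peak in G2/M (the approach to and passage through mitosis). They stand among 35858 gene symbols in one set of samples and 24823 in the other. In proliferating cells the cyclin E and E2F axis starts DNA synthesis, the Mcm2 to Mcm7 helicase is loaded on origins with the help of Cdc6 and Cdt1, and Foxm1 and its partners then drive the mitotic genes. Most hepatocytes and pancreatic acinar cells of an adult animal are quiescent, and their mitotic transcripts are scarce. In hepatocytes, DNA synthesis can also take place without cell division, which leaves polyploid cells.

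The mice carried human APOBEC3B, a DNA cytosine deaminase (A3B), fused to turboGFP under a tetracycline-responsive promoter at the ColA1 locus. A3B animals also carried CAGs-rtTA3, which drives the transactivator in most adult tissues, so the transgene was not limited to 1 cell type. Controls were littermates with one of these transgenes but not the other. A3B animals received food with 625 ppm doxycycline from an age of 4 weeks. Set 2 comprised livers and pancreases of 6 A3B and 2 control mice per tissue, all labelled 10 days of doxycycline. Set 1 comprised livers and lungs of 3 A3B and 3 control mice per tissue. Its controls are labelled 15 days, A3B livers 23 and 28 are labelled 14 days, and A3B liver 70 and the A3B lungs are labelled 10 days. The labels give doxycycline to all controls, whereas the mouse list and a legend of the study describe some of them, those of set 2 included, as without it, so the drug and the transgene cannot be told apart in those comparisons. Groups follow the sample titles. The genotype labels go against the titles in A3B pancreases 44 and 137, control pancreases 45 and 168 and control liver 11, and control lung 87 is labelled with the driver alone. In set 1, whose table includes the transgene, it stood between 705 and 1705 TPM (length-scaled transcript abundance) in A3B livers and between 90.6 and 281 TPM in A3B lungs. Controls had at most 0.526 TPM, so these values follow the titles.

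TMM-scaled estimated counts of set 2 were tested by the quasi-likelihood method of edgeR, and log2(TPM + 1) of set 1 by limma. A gene is said to be higher or lower when its p-value, adjusted by Benjamini-Hochberg over all genes tested, was under 0.05, and the p-values measure the spread between mice. Estimated counts summed to between 65161064 and 118976013 per sample in set 2, and the depth of set 1 is unknown. All 45 genes passed the filter on low values in set 2. In set 1, 27 passed in the liver and 38 in the lung, and the liver lost 16 of the 25 G2/M genes. Fewer cells of a type and less RNA per cell cannot be told apart in these tissue samples.

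A3B liver 49 of set 2 stood apart from the other 5 A3B livers in the mitotic genes, and the counts of G1/S and G2/M genes in the liver of set 2 are also given without it. The 8 hepatocyte markers summed to 34020 TPM in liver 49, the lowest of the A3B livers, whose median was 69330 TPM. Its 8 macrophage markers summed to 1005 TPM and its 8 neutrophil markers to 120 TPM, the highest A3B values for both lists. It also held the highest A3B sums of the T cell markers (13.1 TPM, A3B median 8.20), the B and plasma cell markers (13.6 TPM, A3B median 5.11) and the fibroblast markers (220.2 TPM, A3B median 135). Its 8 erythroid progenitor markers summed to 5.40 TPM, the lowest of the A3B livers. Marker sums also differed between the arms of both liver sets. Hepatocyte markers summed to between 34020 and 82600 TPM in A3B livers of set 2 against 93860 and 143000 TPM in controls, and to between 6063 and 8821 TPM against 9320 to 11080 TPM in set 1. Neutrophil markers summed to between 5.61 and 120 TPM against 3.06 and 5.64 TPM in set 2, and to between 12.2 and 130 TPM against 9.51 to 22.5 TPM in set 1. The median log2 fold change was -0.52 and -0.57 for the hepatocyte markers of sets 2 and 1 and 2.42 and 2.08 for the 7 and 4 neutrophil markers tested. None of these markers passed the test (edgeR in set 2, limma in set 1), and an unadjusted p under 0.05 was found for 4 and 2 hepatocyte markers and for 4 and 4 neutrophil markers. The part of these cells in the result was not tested.

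The promoters of the 2 phases differed in their letters. RefSeq windows on GRCm38.p6 were available for 35 of the 45 genes, and the 250 bases before the start were searched on both strands. The CHR letters (TTTGAA or TTCGAA), known from promoters of G2/M genes, were found in 10 of 20 G2/M genes and 3 of 15 G1/S genes, against 17.1% of all 32851 windows. CCAAT was found in 18 of 20 G2/M genes and 9 of 15 G1/S genes, against 33.8%. The E2F letters (TTTCCCGC or TTTGGCGC) were found in 4 of 15 G1/S genes and 0 of 20 G2/M genes, against 1.3%. A match is a description of letters and not a bound site. The 150 bases before the start are shown, with all these letters in capitals on either strand, for Mcm3 (chr1:20820313-20820462) and Mcm6 (chr1:128359706-128359855), 2 helicase genes that were higher in the A3B pancreas. They are also shown for Ect2 (chr3:27153855-27154004), the 1 G2/M gene that was higher there, and for Cdk1 (chr10:69352913-69353062) and Cdc20 (chr4:118437344-118437493), which were low in 5 of 6 A3B livers. All 5 genes lie on the minus strand, and sequences run 5′ to 3′.
Mcm3: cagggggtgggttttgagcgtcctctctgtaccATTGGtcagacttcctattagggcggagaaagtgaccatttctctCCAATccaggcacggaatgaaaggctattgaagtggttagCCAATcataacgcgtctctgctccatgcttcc
Mcm6: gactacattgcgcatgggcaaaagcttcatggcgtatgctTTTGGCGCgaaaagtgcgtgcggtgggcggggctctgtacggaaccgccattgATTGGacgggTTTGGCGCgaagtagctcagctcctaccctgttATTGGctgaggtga
Ect2: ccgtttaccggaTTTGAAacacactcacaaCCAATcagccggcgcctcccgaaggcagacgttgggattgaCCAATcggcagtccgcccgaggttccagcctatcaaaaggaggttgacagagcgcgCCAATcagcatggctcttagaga
Cdk1: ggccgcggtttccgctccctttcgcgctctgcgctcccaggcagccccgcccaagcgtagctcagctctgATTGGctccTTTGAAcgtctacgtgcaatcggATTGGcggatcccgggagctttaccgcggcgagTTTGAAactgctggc
Cdc20: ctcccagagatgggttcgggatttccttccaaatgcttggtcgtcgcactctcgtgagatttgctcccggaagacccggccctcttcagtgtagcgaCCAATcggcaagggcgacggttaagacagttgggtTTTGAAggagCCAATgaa
Mcm6 holds the E2F letters in 2 places, and Cdk1 holds the CHR letters in 2 places. Ect2 holds 3 copies of CCAAT and 1 of the CHR letters, and Mcm3 holds CCAAT but neither the CHR nor the E2F letters in the bases shown. Ect2 has 2 annotated starts, and the window of one is shown.

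In the livers of both sets the balance between the phases was shifted toward G1/S in A3B mice, with the exception of liver 49. The ratio of summed G1/S TPM to summed G2/M TPM within a sample does not depend on how samples are scaled to each other, and it was described without a test. In set 2 it was 3.55 in control 45 and 4.34 in control 168. The A3B livers had ratios of 7.30 (mouse 44), 10.9 (137), 14.6 (125), 7.0 (48) and 9.06 (153), and liver 49 had a ratio of 1.44. Hence 5 of 6 A3B livers lay above both controls and liver 49 below them. In set 1 the ratios were 16.4 (23), 8.04 (28) and 7.30 (70) in A3B livers and 3.74 (11), 2.77 (91) and 3.08 (92) in controls, so the groups did not overlap. The pancreas of set 2 had ratios from 1.61 to 2.98, with a median of 2.12, in A3B mice and 1.32 and 1.88 in controls. In the lung the A3B ratios were 3.61 (69), 2.80 (70) and 3.22 (74), and the control ratios were 3.82 (87), 2.41 (88) and 2.28 (91). The groups overlapped in both pancreas and lung on this measure, in which the abundant genes weigh most. The difference between the mean log2 level of the G1/S genes tested and that of the G2/M genes tested weighs genes equally. In the pancreas it ranged from 0.69 to 1.85, with a median of 1.07, in A3B mice and was 0.09 and 0.57 in controls, so here the groups did not overlap and the A3B pancreases lay toward G1/S as well. In the liver it was 2.96 to 3.90 in 5 A3B livers of set 2 and 0.67 in liver 49 against 1.32 and 1.81 in controls, and 1.12 to 1.96 against 0.12 to 0.60 in set 1. In the lung it overlapped, at 0.99 to 1.19 against 0.86 to 1.36.

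**Figure D1:**
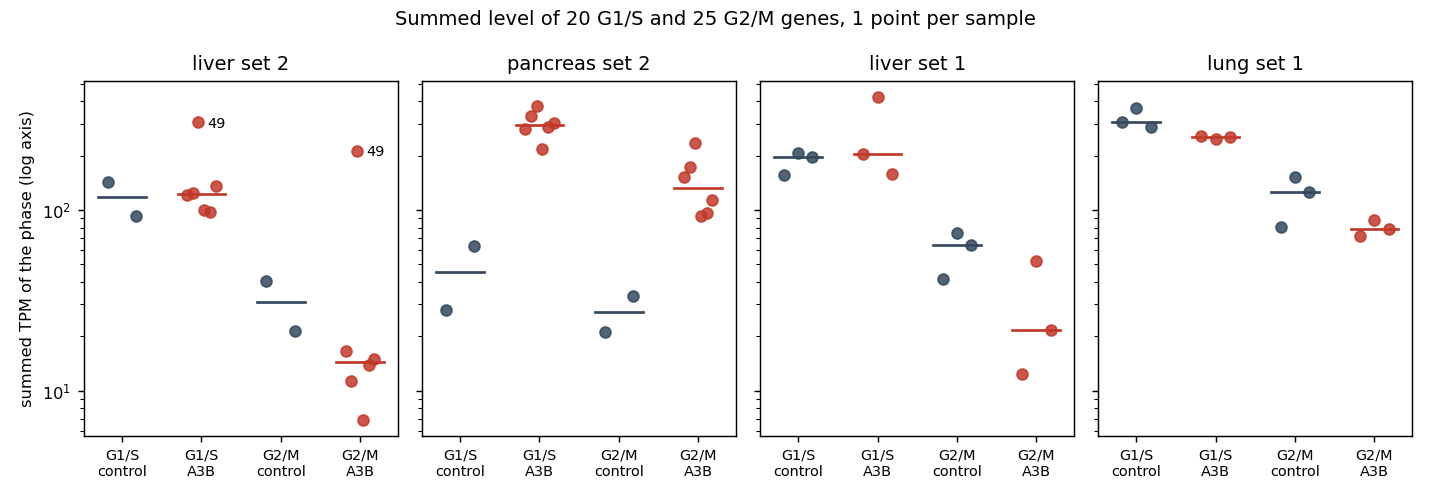
Summed TPM of the 20 G1/S and 25 G2/M genes (vertical, log axis) in every sample of the 4 comparisons, with A3B in red, controls in dark blue and lines at the group medians. G2/M sums of 5 of 6 A3B livers of set 2 lie between 6.91 and 16.6 TPM, below the controls at 21.4 and 40.5, and liver 49 lies at 213 TPM.

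In set 2 the shift came with low G2/M sums more than with high G1/S sums. There the summed G2/M level was 40.5 TPM in control 45 and 21.4 TPM in control 168. It was 16.6, 11.3, 6.91, 13.9 and 14.9 TPM in A3B livers 44, 137, 125, 48 and 153, and 213 TPM in liver 49. Liver 49 was thus 12.9 times the highest of the other A3B livers, and the other 5 lay below both controls. Summed G1/S levels were 144 and 92.7 TPM in controls and 97.1 to 135 TPM in the same 5 A3B livers, so these overlapped, and liver 49 reached 306 TPM. In set 1 the G2/M sums were 12.4, 52.5 and 21.6 TPM in A3B livers 23, 28 and 70, against 41.7, 74.9 and 64.1 TPM in controls 11, 91 and 92. Liver 28 overlapped the controls there and also had the highest G1/S sum, 422 TPM.

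Gene by gene, with all 6 A3B livers of set 2, 1 of the 45 genes was higher and 1 was lower, where 1.26% and 2.41% of the 17365 genes tested were higher and lower. Ccne2 rose and Tk1 fell, both G1/S genes, and 0 of 25 G2/M genes passed the test. No G2/M gene had an unadjusted p under 0.05, and DESeq2 also called 0 of them. The median log2 fold change was 0.25 for G1/S and 0.17 for G2/M genes, beside 0.21 for all genes tested. Without control 45 these medians were 0.64, 0.73 and 0.20. Without control 168 the median of the 45 genes was -0.22, beside 0.18 for all genes, so its sign depends on the control.

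Cyclin E partners Cdk2 at the start of DNA synthesis, and Ccne2 encodes one of its forms. Ccne2 (chr4:11191351-11204779, plus strand) stood between 6.48 and 19.3 TPM in A3B livers of set 2, with a median of 8.54 TPM, and at 0.891 and 0.733 TPM in controls 45 and 168. All A3B livers lay above both controls, and the log2 fold change was 3.31 ± 0.62 (SE, edgeR, adjusted p = 0.0242). In set 1, whose livers came from other mice, Ccne2 was 3.06, 9.47 and 4.77 TPM in A3B livers and 0.265, 0.388 and 0.105 TPM in controls. The groups again did not overlap, and the log2 fold change was 2.33 ± 0.39 (SE, limma, adjusted p = 0.0250). In all tested genes of set 2 every A3B liver lay above every control in 15% and below in 12.8%, and in set 1 in 28.5% and 10.3%. Ccne1, the other form, had a median of 1.95 TPM and a highest value of 8.42 TPM in A3B livers of set 2 and did not pass the test (log2 fold change 1.18 ± 0.95 (SE), edgeR adjusted p = 0.481, and 0.35 ± 0.62 (SE), adjusted p = 0.751, without liver 49). In set 1 Ccne1 was 7.60, 39.0 and 1.13 TPM in A3B livers and 0.887, 2.85 and 2.07 TPM in controls, so liver 28 carried most of the group mean.

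Tk1 encodes the cytosolic thymidine kinase of the nucleotide salvage pathway. Tk1 (chr11:117815526-117826092, minus strand) stood between 5.82 and 20.1 TPM in A3B livers of set 2, with a median of 14.5 TPM, and at 49.7 and 26.9 TPM in controls. All A3B livers lay below both controls, liver 49 included, with a log2 fold change of -1.85 ± 0.39 (SE, edgeR, adjusted p = 0.0357). In set 1 it was 3.02, 3.36 and 7.91 TPM in A3B livers and 17.6, 21.3 and 31.3 TPM in controls, again without overlap (log2 fold change -2.14 ± 0.41 (SE), limma adjusted p = 0.0338). Both calls were lost when control 45, control 168 or A3B liver 137 of set 2 was left out, with log2 fold changes between 2.96 and 3.55 for Ccne2 and between -2.15 and -1.68 for Tk1, and with 1 control left its spread was taken to be that of the A3B livers. The call for Tk1 was also lost without A3B liver 44, at -1.83, with counts scaled by their totals, at -1.40, and with limma on log2(TPM + 1), at -1.39. E2f1, whose product activates many of these genes, stood between 1.16 and 6.61 TPM, with a median of 3.04 TPM, in A3B livers and at 1.89 and 1.3 TPM in controls (log2 fold change 0.64 ± 0.64 (SE), adjusted p = 0.584). Mcm2 of the helicase had a median of 1.21 TPM against 1.95 and 0.772 TPM (0.24 ± 0.87 (SE), adjusted p = 0.894), and Pcna a median of 28.1 TPM against 22.8 and 18.5 TPM (0.25 ± 0.35 (SE), adjusted p = 0.706). The A3B and control ranges overlapped in all of these genes except Ccne2 and Tk1. Of the other enzymes of deoxynucleotide supply in set 2, Tyms, Rrm1 and Rrm2 had log2 fold changes of -0.20, -0.52 and -0.08 and none passed the test. Without liver 49 E2f1, Mcm2 and Pcna had log2 fold changes of 0.48, -0.65 and -0.05, so Mcm2 and Pcna changed sign, and none passed (edgeR adjusted p from 0.439 to 0.900). Tyms, Rrm1 and Rrm2 were then at -0.46, -1.04 and -1.01, and Rrm1 passed (adjusted p = 0.0498).

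**Figure D2:**
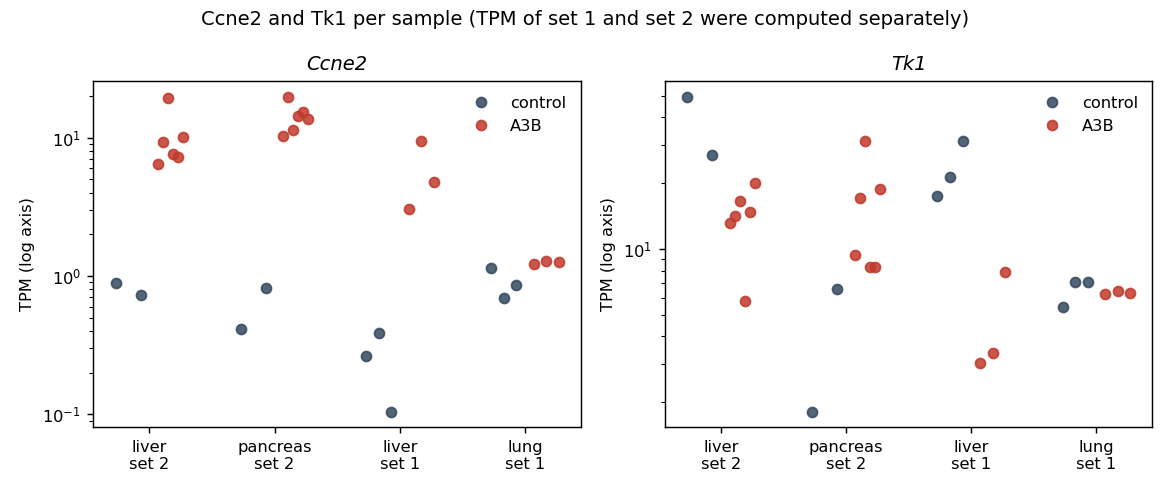
TPM of Ccne2 and Tk1 (vertical, log axis) in every sample, by tissue and set, with A3B in red and controls in dark blue. Ccne2 lies above the controls in every A3B liver and pancreas, and Tk1 lies below the controls in every A3B liver of both sets but above them on the TPM scale in the pancreas.

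Without liver 49, 13 of the 25 G2/M genes were lower in A3B livers and 0 were higher, where 5.54% and 3.84% of 17053 genes were lower and higher. The median log2 fold change of the G2/M genes was then -2.16 and that of the G1/S genes -0.45, beside 0.08 for all genes. Of the G1/S genes Tk1 and Rrm1 were lower and Ccne2 was higher. In 18 of 25 G2/M genes all 5 remaining A3B livers lay below both controls, as in 17.2% of all genes on the log2 CPM scale (counts TMM-scaled). In TPM, liver 49 held the highest value of the 8 livers in 25 of 25 G2/M genes and in 17 of 20 G1/S genes. On the log2 CPM scale liver 49 was highest in 22.1% of all genes tested, and the member counts were not taken on that scale. The G1/S genes liver 49 did not lead in TPM were E2f1, Mcm6 and Tk1. Liver 49 was left out because it was high in these same genes, which lowers their A3B level and spread by construction. For these genes the counts and adjusted p-values without it, above and below, describe the other 5 A3B livers and are no independent test. The share of all genes is not a like comparison for them. With A3B liver 44, 137, 125, 48 or 153 left out instead, 0 G2/M genes were lower.

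Among the mitotic cyclins and kinases, Cdk1 encodes the kinase that triggers mitosis, and it stood at 4.53 and 2.96 TPM in control livers 45 and 168 of set 2. A3B livers 44, 137, 125, 48 and 153 held 1.63, 0.806, 0.318, 0.294 and 1.91 TPM, and liver 49 held 33.7 TPM. Its log2 fold change was 0.17 ± 1.53 (SE) with liver 49 and -2.45 ± 0.50 (SE) without it (edgeR, adjusted p = 0.962 and 0.0211). Ccnb1, cyclin B1, was 1.04 and 0.559 TPM in controls and 0.139, 0.0408, 0.0145, 0.0502 and 0.433 TPM in the same 5 A3B livers, and 11.6 TPM in liver 49. Its log2 fold change went from 0.91 to -3.20 (adjusted p = 0.0386) when liver 49 was left out. Ccna2, cyclin A2, was 1.41 and 0.418 TPM in controls, between 0.0926 and 0.419 TPM in the 5 A3B livers and 5.3 TPM in liver 49. Ccna2 and Aurkb were lower as well without liver 49, at -2.47 and -2.36, and Ccnb2, Plk1 and Aurka did not pass, at -2.38, -1.72 and -2.12.

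Foxm1, the transcription factor of the mitotic programme, was 1.08 and 0.259 TPM in controls and 0.242, 0.118, 0.125, 0.286 and 0.325 TPM in A3B livers 44, 137, 125, 48 and 153. Liver 49 held 2.67 TPM. Without it the log2 fold change was -2.32 ± 0.49 (SE, edgeR, adjusted p = 0.0236). Mki67, whose product coats mitotic chromosomes, was 1.05 and 0.246 TPM in controls, 0.224, 0.0447, 0.0593, 0.0800 and 0.179 TPM in the 5 A3B livers and 3.83 TPM in liver 49. With liver 49 the log2 fold changes of Foxm1, Mki67 and Ccna2 were -0.52, -0.22 and -0.15 with adjusted p from 0.834 to 0.963. Mki67 was lower without liver 49, at -2.83 ± 0.63 (SE, adjusted p = 0.0278). Top2a, topoisomerase II alpha, stood between 0.395 and 3.08 TPM in the 5 A3B livers, against 2.45 and 0.781 TPM in controls and 6.04 TPM in liver 49, and did not pass without it, at -1.87 ± 0.76 (SE, adjusted p = 0.143). Of the spindle checkpoint and APC/C genes without liver 49, Cdc20 fell by 3.04 and Bub1 by 4.34 on the log2 scale, and of the kinetochore genes Cenpa fell by 2.15 and Cenpf by 2.5. Kif11, Kif20a and Nusap1 of the spindle and cytokinesis group were also lower. Birc5 and Ect2 did not pass and had log2 fold changes of 0.17 and -0.29 without liver 49. Counts of several mitotic genes were small in these livers, and Bub1 ranged from 0 to 276 estimated counts per sample.

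**Figure D3:**
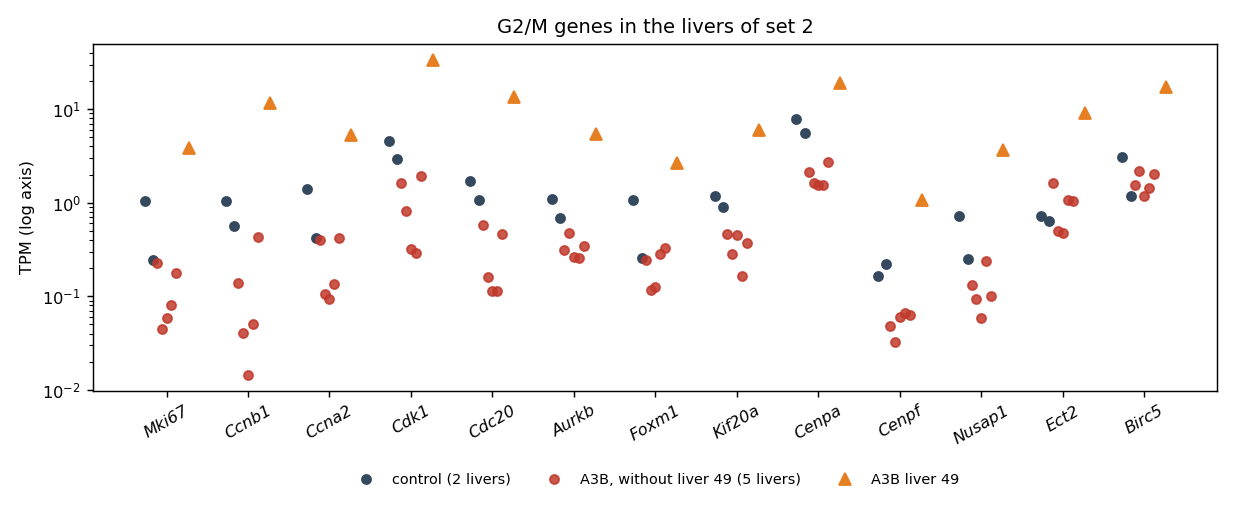
TPM (vertical, log axis) of 13 G2/M genes in the livers of set 2, with controls in dark blue, 5 A3B livers in red and A3B liver 49 as an orange triangle. Liver 49 is the highest point for every gene drawn, and for Cdk1 the other 5 A3B livers lie between 0.294 and 1.91 TPM, below the controls at 2.96 and 4.53 TPM.

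In the livers of set 1, 3 of the 18 G1/S genes tested were higher and 1 was lower, where 6.07% and 1.86% of 11495 genes were higher and lower. Beside Ccne2 and Tk1, Mcm4 and Rrm2 were higher. Mcm4, a helicase subunit, was 5.5, 10.4 and 4.78 TPM in A3B livers and 2.42, 1.46 and 0.911 TPM in controls (log2 fold change 1.58 ± 0.38 (SE), limma adjusted p = 0.0477). Rrm2, the regulated subunit of ribonucleotide reductase, was 4.74, 3.49 and 3.0 TPM in A3B livers and 1.34, 0.886 and 0.876 TPM in controls. Its log2 fold change was 1.21 ± 0.29 (SE, adjusted p = 0.0455), whereas in set 2 Rrm2 did not pass, at -0.08 ± 0.91 (SE). Every A3B liver lay above every control in 7 of 18 G1/S genes, as in 28.5% of all genes, among them Mcm6 and Pcna, which did not pass the test (adjusted p = 0.0513 and 0.112). Pcna was 37.7, 59.6 and 18.7 TPM in A3B livers and 15.2, 15.5 and 13.7 TPM in controls. E2f1 was 3.05, 2.39 and 4.16 TPM against 2.75, 1.84 and 2.24 TPM, and Mcm2 was 1.68, 5.97 and 1.19 TPM against 1.62, 1.88 and 1.57 TPM. Their ranges overlapped, at 0.34 ± 0.29 and 0.36 ± 0.45 (SE), and the log2 fold change of Ccne1 was 1.68 ± 0.96 (SE), none past the test (adjusted p from 0.259 to 0.599).

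Only 9 G2/M genes could be tested in the livers of set 1, and 1 of them was lower. Aurka, the centrosomal mitotic kinase, was 1.79, 6.0 and 1.60 TPM in A3B livers and 9.84, 13.7 and 15.4 TPM in controls, without overlap (log2 fold change -1.90 ± 0.44 (SE), limma adjusted p = 0.0448). Cenpa, the centromeric histone H3 variant, was 4.12, 12.5 and 8.71 TPM in A3B livers and 19.9, 36.3 and 24.3 TPM in controls, also without overlap, but did not pass (-1.62 ± 0.43 (SE), adjusted p = 0.0571). The median log2 fold change was 0.80 for the G1/S genes, -0.49 for the G2/M genes and 0.39 for all genes, and with values centred on each sample's median these became 0.35, -0.95 and -0.07. Cdk1, Mki67, Foxm1 and Ccna2 were highest of the 6 livers in A3B liver 28. Cdk1 was 0.775, 12.9 and 2.04 TPM in A3B livers 23, 28 and 70 and 2.87, 5.96 and 5.13 TPM in controls (-0.38 ± 0.72 (SE), adjusted p = 0.734). Mki67 was 0.191, 3.21 and 0.341 TPM against 0.67, 1.9 and 2.05 TPM (-0.38 ± 0.54 (SE), adjusted p = 0.645). Foxm1 was 0.383, 3.5 and 0.776 TPM against 0.33, 0.786 and 0.977 TPM (0.41 ± 0.48 (SE), adjusted p = 0.569). Ccnb1, Ccna2 and Top2a were under the minimum mean for a test, with highest values of 0.454, 1.11 and 0.146 TPM in A3B livers and 1.39, 0.705 and 0.309 TPM in controls. The calls in these livers rest on few mice, and 0 members were called when control 91, control 92 or A3B liver 23 was left out. In all genes 1, 7 and 43 were then called higher and 0, 2 and 12 lower. Over the 3 fits without one of these mice the log2 fold changes lay between 2.24 and 2.64 for Ccne2, -2.18 and -1.92 for Tk1, 1.38 and 1.69 for Mcm4, 1.07 and 1.16 for Rrm2 and -1.85 and -1.69 for Aurka. With values centred on each sample's median Rrm2 and Mcm4 also lost the call, at 0.76 and 1.12 (adjusted p = 0.129 and 0.0714). Both were lost without A3B liver 28 as well, and Aurka without control 11 or A3B liver 70, and all 5 calls were lost without the filter. With all A3B livers of set 2, 15 of the 18 G1/S genes tested in both liver sets had the same direction in both. Of the 9 G2/M genes 5 had, beside 77.3% of all 10884 genes tested in both. Liver 49 enters these counts, and they were not taken without it. In set 2 without liver 49, Mcm2, Mcm3 and Pcna turned negative (-0.65, -0.45 and -0.05), against positive values in set 1. The G1/S agreement thus rests in part on that liver. Of the G2/M genes, Cdk1 (-2.45) and Ccnb2 (-2.38) then took the direction of set 1, and Ect2 (-0.29) left it.

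In the pancreas 8 of 9 origin licensing genes rose in A3B mice relative to other genes, with Gmnn as the exception, while the mitotic genes stayed near the level of all genes. On the TMM scale 11 of 20 G1/S genes were higher and 0 lower, and 1 of 25 G2/M genes was higher and 1 lower. Of the 19123 genes tested 17% were higher and 14.9% lower. Without control 45 or control 168 the count fell from 11 to 7 G1/S genes, where 10.2% and 15.5% of all genes were higher (8.77% and 12.7% lower), and from 8 to 5 of the 9 licensing genes. Mcm2 and Cdc6 lost the call in both fits, Mcm5 without control 45 and Mcm7 without control 168. With 1 A3B pancreas left out, or without pancreases 44 and 137, 7 or 8 licensing genes were higher. The median log2 fold change was 1.22 for G1/S and 0.14 for G2/M genes, beside 0.09 for all genes. With counts scaled by their totals alone all 45 genes were higher, as were 70.5% of all genes (1.1% were lower). With limma on log2(TPM + 1) 41 members were higher, as were 83.9% of 13590 genes (1.12% were lower). With counts scaled by their totals the median of all genes moved to 2.29, with 3.45 for G1/S and 2.52 for G2/M genes. On the TMM scale 9 of 25 G2/M genes had a negative log2 fold change, and on the total-count scale 0 had, so their direction depends on the scale. The median of the G1/S genes exceeded the median of all genes on both scales.

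The tissue itself differed between the arms. The 8 acinar markers summed to between 62580 and 169200 TPM in A3B pancreases and to 221600 and 237400 TPM in the 2 controls, and 7 of the 8 were lower on the TMM scale. The 8 macrophage markers summed to between 1963 and 5724 TPM in A3B pancreases and between 49.5 and 558.5 TPM in controls, and 7 were higher. The 8 fibroblast markers summed to between 1013 and 1616 TPM against 41.3 to 178.5 TPM, and 7 were higher. The 6 ductal markers summed to between 1280 and 3032 TPM against 55.5 and 107 TPM, and 4 were higher. T cell markers overlapped between the arms. The part of these cells in the result was not tested.

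The Mcm2 to Mcm7 helicase opens DNA at origins, and all 6 subunits were higher in the A3B pancreas. Mcm3 (chr1:20802968-20820312, minus strand) stood between 9.71 and 27.2 TPM in A3B pancreases, with a median of 17.9 TPM, and at 0.632 and 1.92 TPM in controls 45 and 168. The log2 fold change of Mcm3 on the TMM scale was 2.59 ± 0.37 (SE, edgeR, adjusted p = 0.000779). Mcm6 stood between 12.5 and 28.1 TPM against 0.770 and 1.68 TPM, with a log2 fold change of 2.05 ± 0.37 (SE, adjusted p = 0.00245). Mcm4, Mcm5 and Mcm2 followed at 1.89, 1.97 and 1.35, where Mcm2 stood between 4.48 and 11.5 TPM against 0.475 and 0.975 TPM, and Mcm7, the most abundant subunit in controls at 2.23 and 4.33 TPM, had the smallest log2 fold change of the complex at 0.81 ± 0.20 (SE, adjusted p = 0.0117). All 6 A3B pancreases lay above both controls in each of the 6 subunits, as in 25.1% of all genes on the TMM scale (18.9% lay below).

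Cdc6 and Cdt1 load the helicase, and geminin (Gmnn) binds and blocks Cdt1. Cdt1 (chr8:122568015-122573554, plus strand) stood between 8.19 and 13.3 TPM in A3B pancreases, with a median of 10.8 TPM, and at 0.249 and 0.811 TPM in controls (log2 fold change 2.30 ± 0.30 (SE), edgeR adjusted p = 0.00048). Cdc6 had a log2 fold change of 1.45 ± 0.50 (SE, adjusted p = 0.0487). Its call was lost in 10 other fits, without either control, without any 1 A3B pancreas except 125, without 44 and 137, with RLE factors and without the filter (1.09 to 1.92, adjusted p from 0.0514 to 0.217). Gmnn did not pass the test on the TMM scale, at -0.02 ± 0.24 (SE, adjusted p = 0.967), with 27.2 to 46.2 TPM in A3B pancreases and 4.60 and 12.3 TPM in controls. The ratio of Cdt1 to Gmnn TPM within a sample, looked at after the values were seen and not tested, ranged from 0.185 to 0.489 in A3B pancreases and was 0.0541 and 0.0659 in controls. In the livers of set 2 the same ratio ranged from 0.0217 to 0.295 in A3B mice and was 0.288 and 0.335 in controls, so the groups overlapped. The ratios were 0.152 to 0.363 against 0.214 to 0.272 in the livers of set 1 and 0.526 to 0.935 against 0.296 to 0.556 in the lung, where the groups overlapped as well.

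**Figure D4:**
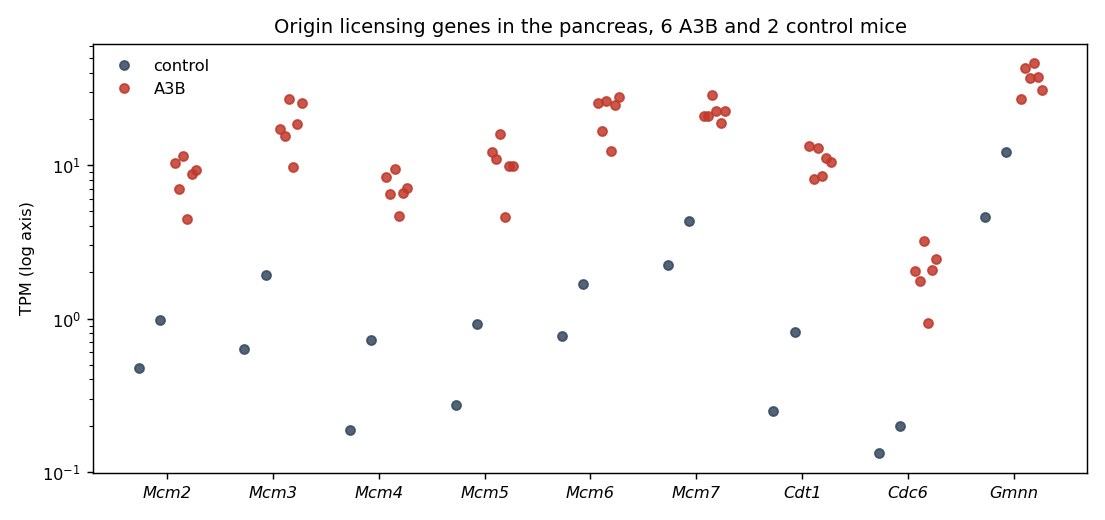
TPM (vertical, log axis) of the Mcm2 to Mcm7 subunits, Cdt1, Cdc6 and Gmnn in 6 A3B (red) and 2 control (dark blue) pancreases. All A3B points lie above the controls on this scale, Gmnn included, and the gap is wider for Mcm3 (9.71 to 27.2 against 0.632 and 1.92 TPM) than for Gmnn (27.2 to 46.2 against 4.60 and 12.3 TPM).

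Both forms of cyclin E were higher in the A3B pancreas. Ccne1 stood between 7.28 and 10.9 TPM, with a median of 9.82 TPM, against 0.198 and 1.09 TPM in controls (log2 fold change 1.97 ± 0.36 (SE), edgeR adjusted p = 0.00267). Ccne2 stood between 10.2 and 19.8 TPM against 0.412 and 0.815 TPM (2.26 ± 0.37 (SE), adjusted p = 0.0015). E2f1, the transcription factor upstream of many G1/S genes, stood between 2.18 and 7.58 TPM against 0.316 and 0.575 TPM and did not pass the test at 1.09 ± 0.38 (SE, adjusted p = 0.0519). Cdc45, which activates the loaded helicase, was higher at 1.5 ± 0.45 (SE, adjusted p = 0.0284), a call that was lost without either control, without A3B pancreas 49 and without 44 and 137 (1.32 to 1.72, adjusted p from 0.0505 to 0.123). Pcna, the sliding clamp of DNA polymerases, did not pass, at 0.34 ± 0.26 (SE, adjusted p = 0.347), with 34.5 to 72.8 TPM against 5.75 and 15.4 TPM. None of the 4 genes of nucleotide synthesis passed the test. Tk1, Tyms and Rrm2 had log2 fold changes of -0.31, -0.46 and -0.42 and Rrm1 of 0.50 on the TMM scale, although on the total-count scale all of them were higher.

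Among the 25 G2/M genes of the pancreas, Ect2 and Cenpa passed the test in opposite directions. Ect2 (chr3:27097222-27153878, minus strand), a gene needed for cytokinesis, stood between 8.45 and 18.6 TPM, with a median of 11.7 TPM, against 0.344 and 0.606 TPM in controls. Its log2 fold change of 2.85 ± 0.39 (SE, edgeR, adjusted p = 0.000609) was the largest of the 45 genes in this tissue. Cenpa had a log2 fold change of -0.88 ± 0.29 (SE, adjusted p = 0.0388) on the TMM scale, but in TPM all A3B pancreases, at 10.9 to 22.8 TPM, lay above the controls at 3.71 and 6.99 TPM. The Cenpa call was lost without A3B pancreas 44, 125, 137 or 153, without 44 and 137 together, without either control and without the filter, at log2 fold changes between -0.99 and -0.70, whereas Ect2 passed in each of these fits. In TPM, all 6 A3B pancreases lay above both controls in 20 of 20 G1/S and 24 of 25 G2/M genes, Cenpf being the exception, and in 70.8% of all genes. Mki67 stood between 1.34 and 7.09 TPM in A3B pancreases against 0.586 and 1.11 TPM in controls, Ccnb1 between 2.69 and 7.72 TPM against 0.908 and 1.43 TPM, and Foxm1 between 1.43 and 9.26 TPM against 0.404 and 1.21 TPM. Each of these ranges lay above the controls in TPM. Mki67, Ccnb1 and Foxm1 had log2 fold changes of -0.26, -0.25 and -0.26 on the TMM scale and of 2.02, 2.09 and 2.02 on the total-count scale. Cdk1 stood between 13.6 and 32.1 TPM against 2.09 and 3.49 TPM, Top2a between 3.38 and 17 TPM against 1.1 and 1.64 TPM, and Ccna2 between 1.72 and 8.75 TPM against 0.584 and 0.707 TPM. Their log2 fold changes were 0.50, 0.66 and 0.14 on the TMM scale, and none of these 6 genes passed the test there (adjusted p from 0.239 to 0.843).

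The A3B effect of the pancreas was set against that of the liver in 1 model over the 16 samples of set 2, in which 6.87% of 19908 genes had a higher and 5.03% a lower effect in the pancreas. Of the 45 genes only Mcm3 differed, with an effect 2.60 ± 0.79 (SE) higher on the log2 scale in the pancreas (edgeR, adjusted p = 0.043). The difference for Ccne2 was -0.89 ± 0.61 (SE, adjusted p = 0.350), for Cdt1 2.81 ± 1.05 (SE, adjusted p = 0.0895) and for Tk1 1.71 ± 0.62 (SE, adjusted p = 0.0814). Livers and pancreases of 5 A3B mice and both controls came from the same animals. With the mouse as a replicate block, Tk1 passed as well, at 1.76 (adjusted p = 0.0396), and 2 genes were called. With counts scaled by their totals 10 G1/S genes had a higher effect in the pancreas, as did 39.4% of all genes (1.12% had a lower one). Liver 49 enters this model, so the large spread of the liver's G2/M genes enters it too.

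In the lung, where the transgene was less abundant than in the liver of set 1, the fold changes were small and mostly negative. Of the 18 G1/S genes tested 6 were lower and 0 higher, and of the 20 G2/M genes tested 2 were lower and 0 higher. Of the 13634 genes tested 20.8% were lower and 16.1% higher. The median log2 fold change was -0.33 for G1/S, -0.36 for G2/M and -0.06 for all genes. E2f1 was 6.41, 7.18 and 7.17 TPM in A3B lungs 69, 70 and 74 and 12.4, 17.4 and 12.8 TPM in controls 87, 88 and 91 (log2 fold change -0.93 ± 0.14 (SE), limma adjusted p = 0.00592). Gins2, a subunit of the GINS complex that travels with the helicase, was 1.28, 1.80 and 1.42 TPM in A3B lungs and 3.24, 3.8 and 3.89 TPM in controls (-0.90 ± 0.12 (SE), adjusted p = 0.00454). Neither gene's groups overlapped, and every A3B lung lay below every control in 8 of 18 G1/S and 3 of 20 G2/M genes, as in 30.6% of all genes. Ccne2 was the 1 member with every A3B lung above every control, as were 23.4% of all genes.

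Tyms, Mcm5, Gmnn and Rrm2 were also lower in the A3B lung, at -0.82, -0.75, -0.72 and -0.42. Rrm2 lost the call whichever of the 6 lungs was left out (-0.48 to -0.32, adjusted p from 0.0548 to 0.120), and the other 3 kept it. Of the mitotic genes Cenpa was 19.8, 23.5 and 24.4 TPM in A3B lungs and 26.9, 40.9 and 51.6 TPM in controls (-0.75 ± 0.23 (SE), limma adjusted p = 0.0439). Cdc20, the activator of the anaphase-promoting complex, was 1.58, 1.75 and 1.54 TPM in A3B lungs and 2.17, 3.99 and 3.11 TPM in controls (-0.62 ± 0.17 (SE), adjusted p = 0.0309). Mki67 was 3.47, 5.48 and 5.31 TPM against 4.42, 9.97 and 6.93 TPM, and Cdk1 was 4.92, 6.48 and 5.17 TPM against 6.19, 13.4 and 9.25 TPM, so both overlapped. Mki67, Cdk1, Ccnb1, Ccna2 and Top2a had log2 fold changes of -0.46, -0.65, -0.32, -0.33 and -0.33 and did not pass (adjusted p from 0.082 to 0.365). Foxm1 was 6.79, 6.4 and 5.69 TPM against 4.26, 5.96 and 4.78 TPM and did not pass at 0.29 (adjusted p = 0.128). Of the G1/S genes Mcm2 was 7.35, 6.55 and 5.94 TPM against 8.49, 12.1 and 7.98 TPM (-0.45 ± 0.17 (SE), adjusted p = 0.0710), Ccne1 had -0.39 and Pcna 0.05, none past the test. Control lung 88 had the highest summed G2/M level, 152 TPM, and without it 5 members were lower and Foxm1 was higher, at 0.40. The count of lower members was also 5 without control 91 or any 1 of the A3B lungs, and it was 12 without control 87. The calls for Cenpa and Cdc20 were both lost without control 88, control 91 or any 1 of the A3B lungs and without the filter on low values, while 6 G2/M genes were lower without control 87. The T cell markers summed to between 125 and 167 TPM in A3B lungs and between 166 and 309 TPM in controls, and the endothelial markers to between 710 and 930 TPM against 960 to 1038 TPM. The macrophage markers summed to between 1089 and 1261 TPM against 1353 to 1443 TPM and the erythroid progenitor markers to between 28.7 and 42.4 TPM against 49.0 to 68.9 TPM, without overlap, and the B and plasma cell markers to between 40.9 and 111 TPM against 68.9 to 321 TPM. The part of these cells in the result was not tested.

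Tested in 1 model over set 1, the A3B effect on 5 G1/S genes was lower in lung than in liver and on Tk1 it was higher, where 8.82% and 1.94% of 13461 genes differed in these directions. The difference for Ccne2 was -2.08 ± 0.39 (SE, limma, adjusted p = 0.0114). Its levels were 1.22, 1.28 and 1.26 TPM in A3B lungs and 1.15, 0.690 and 0.868 TPM in controls. The differences for Rrm2, E2f1, Mcm4 and Gmnn were -1.63, -1.27, -1.64 and -1.65, and that for Tk1 was 2.11 ± 0.43 (SE, adjusted p = 0.0150). With values centred on each sample's median E2f1, Mcm4 and Gmnn lost the call, at -0.79, -1.16 and -1.17 (adjusted p from 0.0566 to 0.192), and Gmnn also with a pseudocount of 0.1, so 2 genes were lower and 1 higher after centring. With the mouse as a replicate block, Mcm6 (-2.23, adjusted p = 0.0264) and the G2/M gene Ect2 (-1.03, adjusted p = 0.0269) passed as well. Of the 16 G2/M genes tested, 0 differed in the model without the block, 2 had an unadjusted p under 0.05, and 0 differed after centring.

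**Figure D5:**
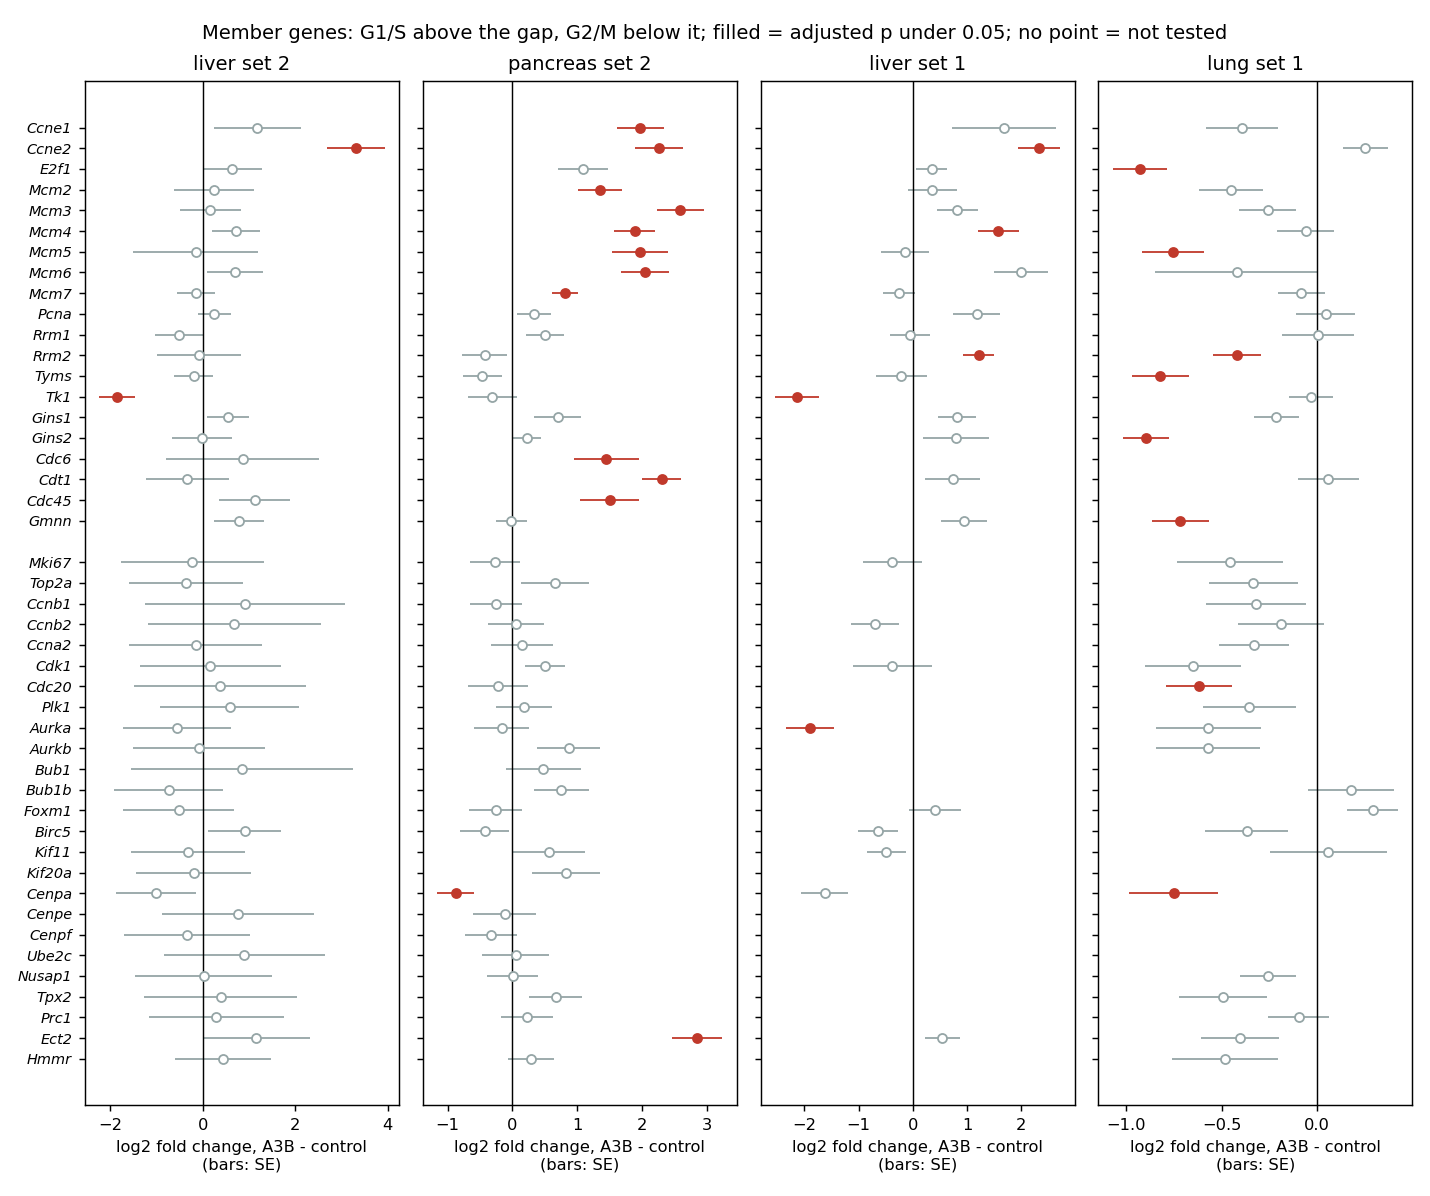
Log2 fold change of A3B over control (horizontal, bars are SE) for the genes tested in each of the 4 comparisons (45 in the liver and pancreas of set 2, 27 in the liver and 38 in the lung of set 1), G1/S genes above the gap and G2/M genes below it, filled red where the adjusted p was under 0.05. Horizontal scales differ between panels, set 2 is on the TMM scale and set 1 on log2(TPM + 1). The cluster of filled points in the pancreas panel is the 11 G1/S genes that were higher.

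Other genes of the same pathways were counted from lists of textbook members. In the pancreas 9 of 26 further G1/S genes were higher and 1 lower, and 1 of 26 further G2/M genes was higher and 2 lower, beside 17% and 14.9% of all genes. The count of 9 fell to 5 without control 45 or without A3B pancreases 44 and 137, and to 6 without A3B pancreas 44 or 153. Lig1, the replicative DNA ligase, had a log2 fold change of 2.65 ± 0.32 (SE, edgeR, adjusted p = 0.000346), with 15.3 to 22.1 TPM in A3B pancreases and 0.498 to 1.22 TPM in controls. Chaf1b, a chromatin assembly factor, and Hells, a chromatin remodeller, were higher at 2.19 and 1.75. Incenp of the passenger complex was higher at 1.23, and Spc25 and Cdkn3 were lower at -1.37 and -1.73 on the TMM scale, and these 3 calls were lost without control 45, that for Cdkn3 also without 44 and 137. With counts scaled by their totals Spc25 and Cdkn3 were at 1.01 and 0.71 and neither passed. E2f3, an activating E2F, had 5.60 to 6.63 TPM in A3B pancreases and 0.122 to 0.382 TPM in controls (2.51 ± 0.26 (SE), adjusted p = 0.0002). Of the 12 G1 control genes, which include it, E2f4 was higher as well, at 0.67 (adjusted p = 0.0442), and E2f5 was lower, at -0.80 (adjusted p = 0.0415). The median of the 12 genes was -0.01. The call for E2f4 was lost in 9 other fits and that for E2f5 in 8, both of them without either control and without A3B pancreas 44, 49 or 125, whereas E2f3 passed in every fit.

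In the livers of set 2, 0 of 26 further G1/S genes passed edgeR's test in either direction, 4 had an unadjusted p under 0.05, and DESeq2 called 4 lower. E2f8 and Rfc2 had log2 fold changes of -1.62 and -1.18 and did not pass. Without liver 49, 5 of the 26 were lower and 0 higher, with E2f8 and Rfc2 at -1.62 and -1.47, and of 25 further G2/M genes 4 were lower and 1 higher, beside 5.54% and 3.84% of all genes. The medians were then -0.63 and -1.0. With all A3B livers 1 of 26 further G2/M genes was higher. This was Cks2, a small subunit of Cdk complexes, at 63.3 to 116 TPM in A3B livers and 19.1 to 21.3 TPM in controls (1.76 ± 0.42 (SE), edgeR adjusted p = 0.0491). The call held without liver 49, at 1.61 (adjusted p = 0.0409), but was lost with RLE factors, without A3B liver 44, 137, 125 or 153, and without either control. In the livers of set 1 Hmgb2, a chromatin protein, was the 1 gene higher of 12 tested in this list (2.31 ± 0.41 (SE), limma adjusted p = 0.0286), and Cks2 did not pass (1.41 ± 0.37 (SE), adjusted p = 0.0559). The Hmgb2 call was lost without control 91, control 92 or A3B liver 23, without the filter and after centring, at log2 fold changes between 1.85 and 2.48. In the lung, where 20.8% of all genes were lower and 16.1% higher, 6 of 21 further G1/S genes tested were lower and 1 higher, with Dut, Gins4 and Rfc2 at -1.15, -0.63 and -0.59. Of 14 further G2/M genes 5 were lower and 1 higher, with Kif4, Cdkn3 and Mad2l1 at -1.08, -0.77 and -0.69.

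Of the inhibitors of cyclin-dependent kinases, Cdkn1a was higher in all 4 comparisons, which share mice between tissues. Cdkn1a encodes p21, which restrains Cdk2 and is induced by p53. It stood between 57.0 and 281 TPM in A3B livers of set 2 and between 1.89 and 8.56 TPM in controls (log2 fold change 4.61 ± 0.73 (SE), edgeR adjusted p = 0.0140, and 4.60 ± 0.73 (SE), adjusted p = 0.0102, without liver 49). In the pancreas it stood between 162 and 242 TPM against 5.05 to 9.89 TPM (2.14 ± 0.52 (SE), adjusted p = 0.0110). In set 1 Cdkn1a stood between 8.80 and 12.6 TPM in A3B livers against 0.154 to 0.887 TPM (2.91 ± 0.32 (SE), limma adjusted p = 0.0109), and between 28.5 and 39.9 TPM in A3B lungs against 3.19 to 4.20 TPM (2.83 ± 0.15 (SE), adjusted p = 0.00141). The Cdkn1a call was lost in the liver of set 2 without control 168, at 3.86 (adjusted p = 0.119), and in the liver of set 1 without control 91 or control 92, at 3.01 and 2.68 (adjusted p = 0.0759 and 0.0751). It held in each of the other fits run, in pancreas and lung in all of them. Cdkn2c, which encodes the Cdk4 and Cdk6 inhibitor p18, was lower in pancreas at -1.03 on the TMM scale (lost without control 168 and without 44 and 137, and 1.08 on the total-count scale) and in lung at -1.26, and did not pass in the liver of either set at -0.48 and -0.42. Of the G1 control genes, 0 of 12 passed in the liver of set 2, 2 of them with an unadjusted p under 0.05, and DESeq2 also called 0. Without liver 49, 1 of the 12 was lower and 6 had an unadjusted p under 0.05. In the lung Cdk4 and Cdk6 were lower at -0.66 and -0.52, and Rbl2, a pocket protein of quiescence, was higher at 0.84. They had the smallest p-values of this list in the lung, where 20.8% of all genes were lower and 16.1% higher.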

How the data were processed

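RNA sequencing of 28 mouse tissue samples was used, with the sample title giving the group. For set 2 the authors deposited kallisto estimated counts and TPM for 119414 Ensembl transcripts per sample. For set 1 the authors deposited 1 table of TPM by gene symbol. Its column names mark the alignments as deduplicated, a step not named for the kallisto values. TPM levels are therefore not comparable between the sets. The submitters' notes name GRCm38 and mm10, and the release of the kallisto index is not given in the sources used here. Transcript values were summed by gene symbol, and 97.7% of transcripts matched one. The unmatched transcripts held 0.23% to 1.47% of the estimated counts and were left out, as were 4 repeated and 26 date-like names of set 1. The 2 tables were normalized separately and tested apart.

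Summed estimated counts were rounded, filtered with filterByExpr, scaled by TMM and fitted with edgeR 4.0.16 (glmQLFit, glmQLFTest) within each tissue. In set 1, log2(TPM + 1) was fitted with limma 3.58.1 in R 4.3.3, leaving out genes whose mean was under 1 TPM. Differences between tissues were interaction terms over both tissues of a set. DESeq2 1.42.0, other scalings, filters and pseudocounts, and leaving out each mouse in turn, were alternatives. Scripts were tested on simulated data. Estimated counts carry uncertainty from reads shared between similar transcripts. Liver and pancreas of 7 mice came from the same animal, so mouse number was tried as a replicate block. Deviations of paired samples from their group means correlated with r from -0.02 to 0.29 across 16737 genes.

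The members and gene lists were chosen with earlier results of these data known. Genes named with values were up to 6 members with the largest change among those called per comparison, 10 standard members in every comparison (Mki67, Top2a, Pcna, Mcm2, Ccne1, E2f1, Foxm1, Cdk1, Ccnb1 and Ccna2), and up to 3 genes with the smallest p of each other list. One of these is not reported here. Other members named, liver 49 and the ratio of Cdt1 to Gmnn were singled out after their values were seen.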

Additional observations from a re-analysis of the deposited data

Results flagged for a closer look

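A3B liver 49 lay far above the other 5 A3B livers of set 2, by the gap to its nearest neighbour relative to the range of the group. The mean log2 CPM was 3.853 over the G1/S genes, against 2.372 in the next liver, and 3.182 over the G2/M genes, against -0.838. Single genes stood apart in the same liver on this scale, with Ccna2 at 3.005, Ccnb1 at 3.751, Cdk1 at 4.115, Foxm1 at 2.547, Mki67 at 4.607 and Pcna at 5.747. A3B pancreas 125 had the lowest mean of the G1/S genes among the A3B pancreases, 3.081 against 3.634 in the next one. In all, 31 groups were looked at, and chance marks about 1 in 20. These genes share samples and are not independent of each other.

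Some A3B effects differed between tissues by a test of the interaction itself. In the pancreas the effect on Mcm3 was 2.603 higher on the log2 scale than in the liver (edgeR, adjusted p = 0.043). In set 1 the effect was lower in the lung than in the liver for Ccne2 (-2.075), E2f1 (-1.272), Mcm4 (-1.64), Rrm2 (-1.633) and Gmnn (-1.654), and higher for Tk1 (2.106), with limma adjusted p from 0.00417 to 0.0453. After centring on each sample's median the differences for E2f1, Mcm4 and Gmnn no longer passed (-0.7885, -1.157 and -1.171), and that for Gmnn no longer passed with a pseudocount of 0.1 either.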

How the results depend on the processing

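Of 667 alternative values of single genes, 593 stayed on their side of the threshold with no called change of sign, 47 lost the call, 19 gained one and 8 reversed. Without liver 49, Ccnb1 (-3.198) and Cdk1 (-2.449) reversed in the liver of set 2, and over the mice left out in turn Ccnb1 ranged from -3.198 to 1.175 and Cdk1 from -2.449 to 0.390. In the pancreas Ccnb1, Foxm1 and Mki67 reversed with counts scaled by their totals (2.085, 2.019, 2.022) and with limma on log2(TPM + 1) (1.382, 1.325, 1.189). Those scalings called 45 and 41 members higher in the pancreas instead of 12, and 0 lower instead of 1, where they called 70.5% and 83.9% of all genes higher. Without the filter, or without A3B pancreases 44 and 137, whose genotype labels go against their titles, 0 were lower. In the liver of set 2 total scaling and limma called 0 lower instead of 1. In the liver of set 1, 0 were higher and 0 lower without a filter instead of 3 and 2, and 1 was higher with a mean of at least 5 TPM and 1 after centring. In the lung 4 were lower with a mean of at least 5 TPM instead of 8. For the pancreas against the liver, total scaling, DESeq2 and the replicate block called 10, 2 and 2 members higher instead of 1. For the lung against the liver, centring left 2 lower instead of 5. The cause of these changes was not tested. The replicate block rests on pairing by animal.

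Leaving out each mouse in turn gave 0 to 1 members higher and 0 to 15 lower in the liver of set 2, 8 to 13 and 0 to 1 in the pancreas, 0 to 5 and 0 to 3 in the liver of set 1, and 0 to 1 and 5 to 12 in the lung. With 2 controls in set 2, leaving one out leaves a lone sample assumed to vary like the other group. Depth limits the scarce mitotic genes of the liver, such as Bub1, at 0 estimated counts in 3 A3B livers, and set 1 gives no depth.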
